A study of Mus musculus with 12 samples.

Results

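The genes of the voltage-gated sodium channels, the voltage-gated calcium channels and the HCN channels were followed in scratched mouse cortical neurons, with and without TGF-β1. They were chosen by symbol alone, as protein-coding genes named Scn, Cacna, Cacnb, Cacng or Hcn with their member numbers, which gave 44 of the 55901 genes measured. Of these 44, 30 had a mean of at least 0.5 FPKM over the 12 libraries and were tested, 16 encoding pore-forming subunits and 14 encoding auxiliary subunits. FPKM is a count of sequenced fragments divided by gene length and by sequencing depth. It does not correct for GC content, so levels set side by side between genes are approximate. The neurons came from the cortex of C57BL/6J mice within 24 h of birth, were treated with arabinosylcytosine to hold back dividing glial cells, and were used after 8 to 10 days in culture. Cultures of the Control group were not scratched. Those of the Trauma group were scratched with a needle along parallel lines, and their RNA was taken after 24 h. The remaining cultures, named Trauma+TGF-β1 here and Tra_TGF in the labels, received TGF-β1 at 10 ng/mL over the 24 h that followed the scratch. Each group held 4 libraries of polyadenylated RNA. No group received TGF-β1 without a scratch, so the cytokine can be compared only between scratched cultures. The model is a dissociated culture of newborn cells, without the vessels or tissue of an injured cortex, and its microglial markers are given below. Neither the labels nor the methods state that the 4 libraries of a group came from separate cultures or animals, so p-values measure the spread between these libraries only.

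Voltage-gated sodium channels open on depolarization and carry the rising phase of the action potential. Their pore is a large alpha subunit, which is joined by beta subunits that alter gating and placement and act as cell adhesion molecules. Voltage-gated calcium channels turn depolarization into calcium entry. Their pore genes fall into the L-type Cav1, the presynaptic Cav2 and the low-threshold T-type Cav3 families, and the alpha2delta and beta subunits bring Cav1 and Cav2 pores to the membrane. The gamma genes encode proteins of which most are known as TARPs, which traffic AMPA-type glutamate receptors. HCN channels open on hyperpolarization, are tuned by cyclic AMP, and set the resting potential and the integration of dendritic input.

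The libraries held 15052486 to 17381671 reads assigned to genes. In a principal component analysis of all tested genes, the library Control 1 stood apart from the other Control libraries (−13.1 against 25.2 to 30.1 on the first component), and results that rest on it are also given without it. Markers of neurons were abundant throughout (summed level of 6 genes 1520 to 1570 FPKM in Control, against 1310 to 1410 in Trauma, with 1280 to 1320 in Trauma+TGF-β1), as the labelled cell type implies. The summed level of 6 astrocyte markers was 103 to 114 FPKM in Control, 145 to 185 in Trauma, with 168 to 182 in Trauma+TGF-β1, and that of 6 microglial markers was 7.95 to 11.8, 14 to 14.6 and 10.7 to 14.3 FPKM in the same order. Of the neuronal markers 3 of 6 passed the threshold as lower in Trauma than in Control, and of the astrocyte markers 5 of 6 passed as higher. From Trauma to Trauma+TGF-β1, 1 neuronal marker was higher and 1 lower, and 1 astrocyte marker was higher and 2 lower. From Control to Trauma+TGF-β1, 1 neuronal marker was higher and 3 lower, and 3 astrocyte markers were higher and 0 lower. The summed levels of 4 excitatory markers (130 to 144 FPKM) and of 4 inhibitory markers (125 to 141 FPKM) overlapped between all groups, but single markers moved both ways. Against Control, 2 inhibitory markers were higher and 2 lower in Trauma+TGF-β1, and 1 excitatory marker was higher and 1 lower. The summed level of 6 oligodendrocyte lineage markers was 35.7 to 40.2 FPKM in Control, 46.8 to 54 in Trauma and 45.7 to 50.7 after TGF-β1. Of the 3 tested, 2 were higher in Trauma than in Control, and 2 were higher and 1 lower in Trauma+TGF-β1 than in Control. The part of cell composition in the channel results was not tested, and in bulk RNA fewer cells of a type and less RNA per cell cannot be told apart.

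Genes of every channel family reached the level for testing in these cultures, with uneven shares within families. In the Control group the sodium channel pores were Scn2a (45.2% ± 1.06 of the summed FPKM of the pore genes, SD, n = 4), Scn8a (24.2% ± 0.964), Scn1a (15.7% ± 0.44) and Scn3a (14.2% ± 0.689). Scn2a is the principal pore of young excitatory axons, Scn8a that of mature axon initial segments, Scn1a is best known from fast-spiking inhibitory neurons, and Scn3a is most used before birth. Of the calcium channel pores, Cacna1i (23.1% ± 0.757) and Cacna1b (22.1% ± 0.849) had the largest shares and did not differ beyond their spread, followed by Cacna1a (17.2% ± 0.803). Among the HCN genes, Hcn2 made up 50.5% ± 0.766. The highest mean of all members was that of Cacnb3, at 50.1 FPKM over the 12 libraries. Tested genes had between 165 reads (Cacnb2) and 7560 reads (Cacna2d1) per library.

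**Figure D1:**
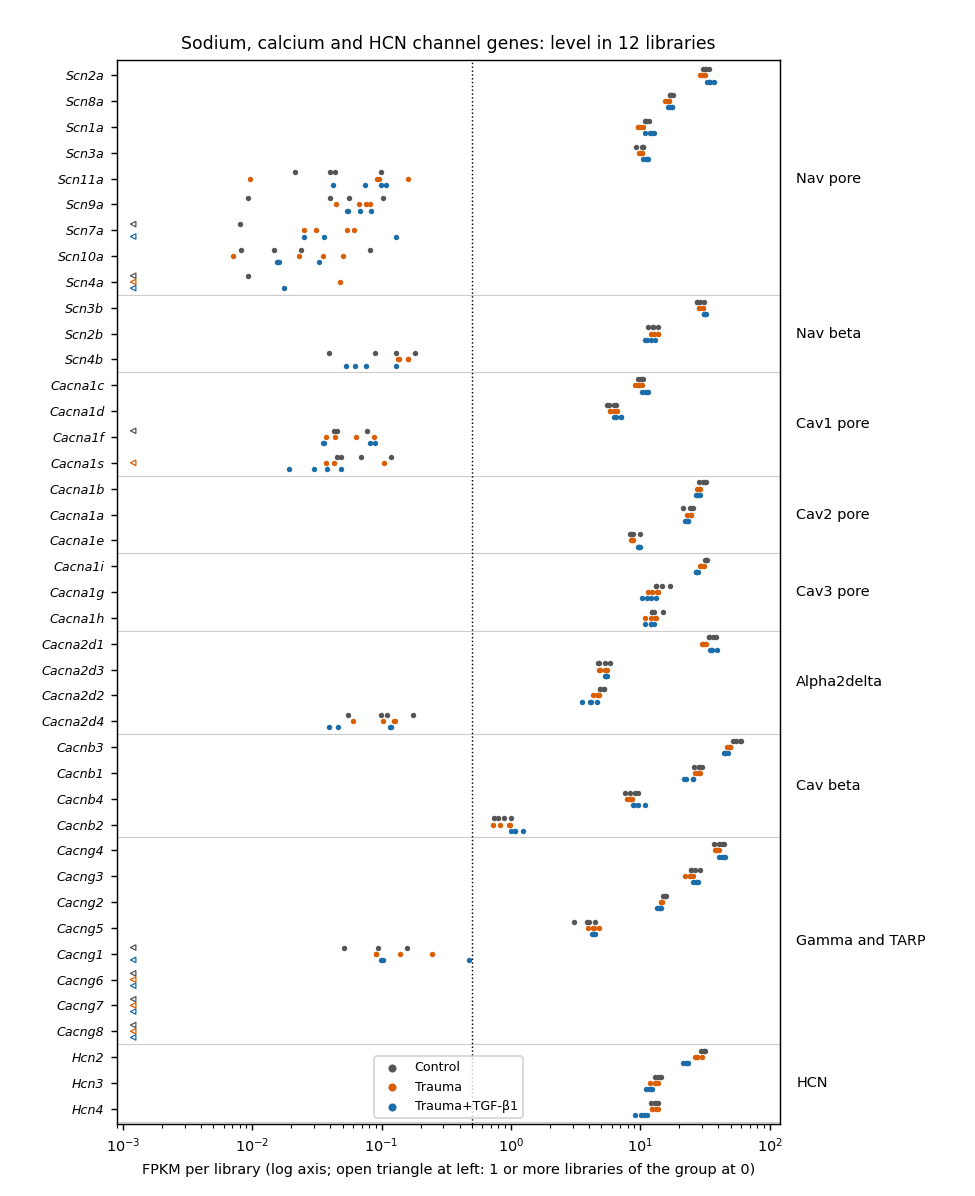
Level of 41 of the 44 channel genes in FPKM on a log axis, with 1 point per library coloured by group and the genes sorted by role. Genes right of the dotted line at 0.5 FPKM were tested, and an open triangle marks a group in which at least 1 library was listed at 0.

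The remaining 14 genes lay below the threshold. The lowest tested gene was Cacnb2 at a mean of 0.94 FPKM, and Cacng1, at 0.128 FPKM, is the highest of those named below it. Scn9a, Scn10a and Scn11a, the pores of pain-sensing neurons, had means of 0.0611, 0.027 and 0.0737 FPKM. Scn4a, the skeletal muscle pore, was at 0.00622 FPKM, Scn7a at 0.0307 FPKM and the beta subunit gene Scn4b at 0.112 FPKM. Cacna1s, the pore of skeletal muscle, where Cacng1 is its gamma subunit, was at 0.0501 FPKM, the retinal pore gene Cacna1f at 0.0532 FPKM and Cacna2d4 at 0.0975 FPKM. Cacng6, Cacng7 and Cacng8 were listed at 0 in all 12 libraries. They are neighbours on chromosome 7 (GRCm38, from 3332955 to 3435667), inside a run of protein-coding genes that were all at or near 0. Upstream of them, Myadm held 3 reads over the 12 libraries, and downstream Tarm1 held 0, whereas the next genes, Oscar and Ndufa3, held 334 and 6720. Whether cells lacked these transcripts or the counting lost this stretch was not tested, so the 3 genes at 0 are not described as unexpressed.

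In the Trauma group, 2 of the 30 tested channel genes differed from the Control group, and both were lower: Cacnb3 and Cacna2d1, auxiliary subunits of the calcium channels. The background over all 15016 genes tested was 6% called, 3.3% as higher and 2.7% as lower (limma on log2(FPKM + 0.1), Benjamini-Hochberg adjusted p of at most 0.05), so 2 of 30 is a share like that of all genes. None of the 16 pore genes passed in this comparison with limma or with limma voom on the reads, and 5 of the 16 had an unadjusted p under 0.05 with limma. At an unadjusted p under 0.05, 8 of the 30 members were lower and 0 were higher. The 4 libraries of one group all lay on the same side of the 4 of the other for 7 members, against 12.9% of all genes. The median log2 fold change of the 30 members was −0.08, and that of all genes was −0.01. Without the library Control 3 or Trauma 3, 0 of the 30 members passed, and without Control 4, Trauma 2, Trauma 4 or Trauma+TGF-β1 replicate 1, 3 or 4, Cacnb3 alone passed.

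Between Trauma+TGF-β1 and Trauma, 11 of the 30 passed. Among the higher ones were Scn1a, Scn2a, Cacna1c, Cacna1e and Cacna2d1 (6 genes in all, where 4.4% of all genes were called higher), and among the lower ones were Cacna1i, Cacnb1, Hcn2 and Hcn4 (5 genes in all, where 7.71% of all genes were called lower). Over both directions the background was 12.1%. The groups did not overlap for 17 members, against 22.2% of all genes. The member median was 0.03, since the genes moved in both directions. The differences of the genes named were small, with Scn1a 19.2% higher, Cacna1i 8.83% lower, Cacnb1 13.8% lower, Hcn2 18.9% lower and Hcn4 20.2% lower. All 11 calls were lost when each library was corrected for the GC content of transcripts, although the size of the difference held for some genes, as given for each below. When each library was corrected for gene length, 0 higher and 4 lower members passed. Scn1a, Hcn2 and Hcn4 passed whichever library was left out. The count fell to 4 without Trauma+TGF-β1 replicate 2, to 5 without Trauma replicate 2, Trauma replicate 4 or Trauma+TGF-β1 replicate 4, to 6 without Trauma replicate 1 and to 7 without Trauma replicate 3.

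Between Trauma+TGF-β1 and Control, 12 of the 30 passed, where 16.6% of all genes did. Scn3b was higher (6.14% of all genes were called higher), and 11 genes were lower (10.4% of all genes), among them Cacna1b, Cacna1g, Cacna1i, Cacna2d2, Cacnb1, Cacnb3, Cacng2, Hcn2, Hcn3 and Hcn4. The groups did not overlap for 12 members, against 18.5% of all genes. With the GC correction 3 members passed, all lower, Cacng2 and Hcn4 among them. Without Control replicate 3, 6 members passed, and without Control replicate 2, Trauma+TGF-β1 replicate 2 or Trauma+TGF-β1 replicate 4, 7 passed. The 3 comparisons share libraries with each other, so a gene's values in them are given side by side and are not separate pieces of evidence.

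**Figure D2:**
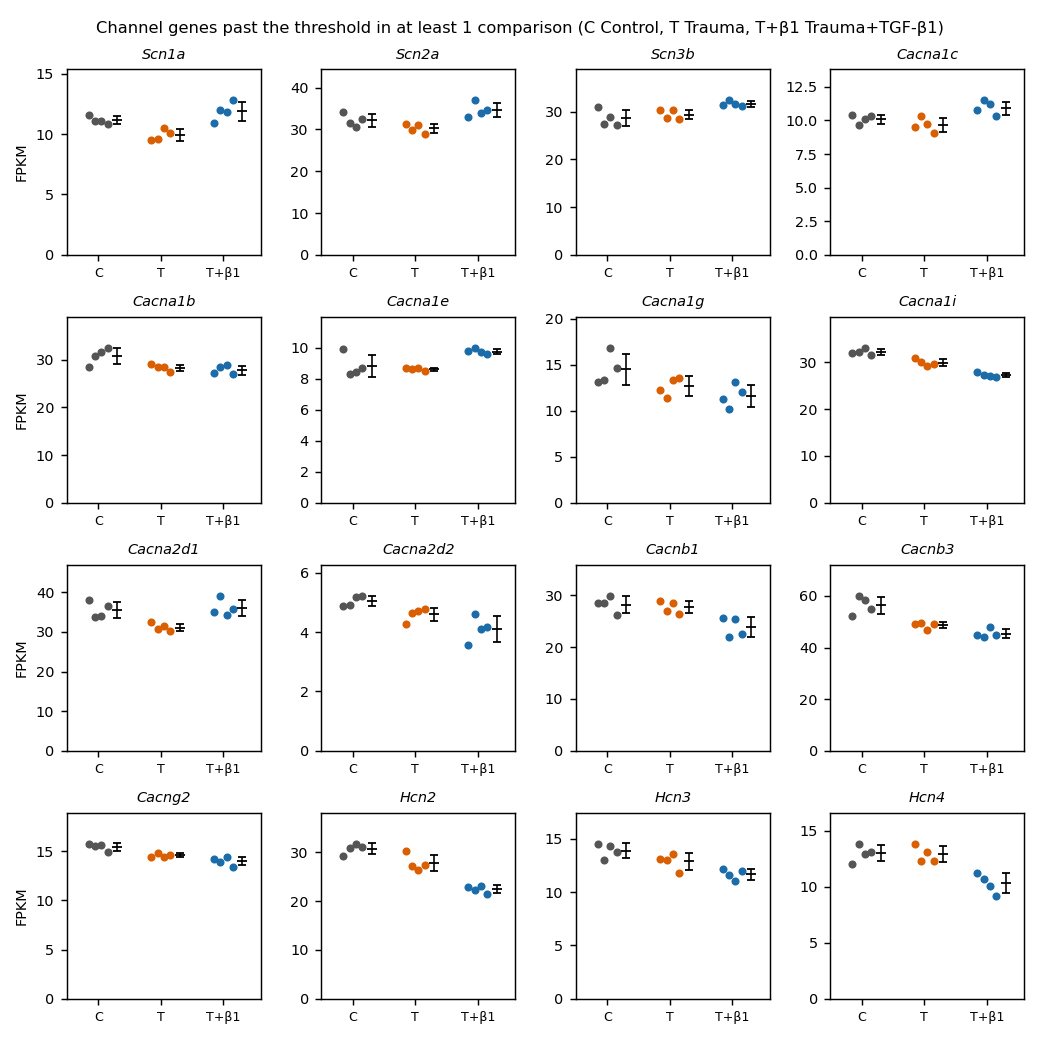
FPKM in each library of 16 channel genes past the threshold in at least 1 comparison, with the axis from 0 and the mean ± SD (n = 4) drawn in black beside each group. The 4 Trauma+TGF-β1 libraries lie below all others for Cacna1i, Cacnb1, Hcn2 and Hcn4, and the spread within groups is small against the level of each gene.

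Among the sodium channel pores, Scn1a and Scn2a were higher with TGF-β1 than in Trauma, and neither passed between Trauma+TGF-β1 and Control. Scn1a (ENSMUSG00000064329, chromosome 2 of GRCm38 from 66270778 to 66440840) stood at 11.6, 11.1, 11.1 and 10.8 FPKM in the Control libraries, 9.52, 9.59, 10.5 and 10.1 in Trauma, and 10.9, 12, 11.8 and 12.8 in Trauma+TGF-β1. The Trauma libraries lay below all those of the other groups, which overlapped each other. It rose by 0.25 on the log2 scale (SE 0.05, limma adjusted p = 0.0147) from Trauma to Trauma+TGF-β1, while Trauma against Control gave −0.17 (SE 0.05, limma adjusted p = 0.0923) and Trauma+TGF-β1 against Control gave 0.08 (SE 0.05, limma adjusted p = 0.315). Scn2a (ENSMUSG00000075318, chromosome 2 from 65620771 to 65767447), the leading pore, had 34.2, 31.6, 30.5 and 32.4 FPKM in Control, 31.4, 29.8, 31 and 29 in Trauma, and 32.9, 37, 34 and 34.7 in Trauma+TGF-β1. Every Trauma+TGF-β1 library exceeded every Trauma library, and Control overlapped both. The log2 fold changes were 0.19 (SE 0.05, limma adjusted p = 0.0232) against Trauma, 0.11 (adjusted p = 0.142) against Control, and −0.09 (adjusted p = 0.347) for Trauma against Control. The call of Scn2a against Trauma was lost with 4 of the 12 libraries left out in turn (Trauma 2 and 4 and Trauma+TGF-β1 replicates 2 and 4). The GC-corrected values against Trauma were 0.16 for Scn1a (limma adjusted p = 0.0733) and 0.10 for Scn2a (adjusted p = 0.172). Scn3a and Scn8a did not pass in any comparison, with log2 values against Trauma of 0.14 (limma adjusted p = 0.0811) and 0.06 (adjusted p = 0.289). Scn1a, Scn2a and Scn3a lie on chromosome 2 and have low GC contents of 43.3%, 43.4% and 42.1%, while Scn8a, on chromosome 15, has 50.8%.

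The promoters of a gene that rose and a gene that fell against Trauma are shown because the base composition of the transcript separated the members, as described below. They are windows around the RefSeq start in GRCm38.p6, for the most part upstream of it, and capitals mark CCGCCC, the reverse complement of the GC box GGGCGG, which is a site of Sp-family factors.
Scn1a chr2:66440788-66441087, minus strand: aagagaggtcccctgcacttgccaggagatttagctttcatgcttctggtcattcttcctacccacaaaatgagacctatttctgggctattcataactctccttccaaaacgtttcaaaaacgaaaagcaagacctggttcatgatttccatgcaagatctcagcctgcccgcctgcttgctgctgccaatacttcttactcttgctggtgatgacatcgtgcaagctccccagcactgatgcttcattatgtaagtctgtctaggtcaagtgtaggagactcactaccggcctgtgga
Hcn2 chr10:79716384-79716683, plus strand: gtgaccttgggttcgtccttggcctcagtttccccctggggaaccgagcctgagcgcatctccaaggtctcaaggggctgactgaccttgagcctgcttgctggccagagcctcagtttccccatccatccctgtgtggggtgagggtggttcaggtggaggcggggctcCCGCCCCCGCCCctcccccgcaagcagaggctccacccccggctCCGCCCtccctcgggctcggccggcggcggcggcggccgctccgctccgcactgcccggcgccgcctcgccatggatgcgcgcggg
The Scn1a window has 47.3% GC and none of the motifs searched, and the Hcn2 window has 72.3% GC and 3 GC boxes. RefSeq promoters were at hand for 32 of the 44 members. RefSeq lists several starts for some of them, which gave 43 promoters. The GC box, searched on both strands, stood in 18 of these 43 (41.9%) and in 35.7% of all 32851 promoters of the same length. It stood in promoters of 2 genes that rose against Trauma and of 3 that fell. Promoters were at hand for 5 genes that rose, with 33% to 81.3% GC, and for 4 that fell, with 59.3% to 73.7%. These ranges overlap, so the 2 windows shown do not stand for the sets. The AP-1 site TGANTCA stood in 1 of the 43 (Cacng5, 7.81% of all promoters), and the SMAD palindrome GTCTAGAC and the cyclic AMP response element TGACGTCA in 0 of the 43 (0.213% and 1.79% of all). Of the repressor element RE1 the left part TTCAGCACC stood in 0 of the 43 (0.371% of all) and the right part GGACAGC in 2, of Cacnb1 and Cacng6 (6.56% of all). A match of letters describes the window and no more.

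Of the sodium channel beta subunits, Scn3b, which modulates gating and placement of the pore, rose from Control to Trauma+TGF-β1. Scn3b (ENSMUSG00000049281, chromosome 9 from 40269217 to 40291618) had 30.9, 27.5, 28.9 and 27.3 FPKM in Control, 30.3, 28.6, 30.3 and 28.5 in Trauma, and 31.3, 32.4, 31.6 and 31.2 in Trauma+TGF-β1. The Trauma+TGF-β1 libraries lay above all others. It was higher than in Control by 0.14 (SE 0.04, limma adjusted p = 0.0412), while the value against Trauma was 0.10 (adjusted p = 0.135). The call was kept only without Control 1 or Trauma 4 among the 12 libraries left out. With the GC correction the value against Control was 0.09 (limma adjusted p = 0.169). Scn2b did not pass, with −0.16 against Trauma (SE 0.07, limma adjusted p = 0.165).

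The L-type Cav1 pores carry calcium entry that is tied to gene regulation in neurons, and 2 of their 4 genes were tested. Cacna1c (ENSMUSG00000051331, chromosome 6 from 118587240 to 119196418) had 10.4, 9.64, 10.1 and 10.3 FPKM in Control, 9.51, 10.3, 9.75 and 9.09 in Trauma, and 10.8, 11.5, 11.2 and 10.3 in Trauma+TGF-β1. The Trauma+TGF-β1 libraries lay above those of Trauma and overlapped Control, and the lowest of them stood at the level of the highest Trauma library. Cacna1c rose by 0.18 (SE 0.05, limma adjusted p = 0.0383) against Trauma, a fold of 1.13. Against Control the value was 0.11 (adjusted p = 0.147), and Trauma against Control gave −0.07 (limma adjusted p = 0.525). With the GC correction its fold change against Trauma was 0.19 (limma adjusted p = 0.0517), so its size held and its call did not. With the gene length correction the value was 0.03 (limma adjusted p = 0.712). The call was also lost with 6 of the 12 libraries left out in turn (Trauma 1, 3 and 4 and Trauma+TGF-β1 replicates 1, 2 and 3). Cacna1d (ENSMUSG00000015968, chromosome 14 from 30039939 to 30491455) had 6.51, 5.49, 6.21 and 5.76 FPKM in Control, 5.87, 5.78, 6.2 and 6.54 in Trauma, and 6.23, 6.43, 7.14 and 7.1 in Trauma+TGF-β1. All 3 groups overlapped for Cacna1d, and it did not pass in any comparison (0.14 against Trauma, SE 0.07, limma adjusted p = 0.21). Cacna1d shares 4.67% of its exon bases with Chdh on the opposite strand.

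Of the presynaptic Cav2 pores, Cacna1b, the N-type pore and the leading member, had 28.5, 30.7, 31.6 and 32.4 FPKM in Control, 29, 28.4, 28.5 and 27.4 in Trauma, and 27.2, 28.4, 28.9 and 26.9 in Trauma+TGF-β1. Apart from Control 1, the Control libraries lay above all others. Cacna1b (ENSMUSG00000004113, chromosome 2 from 24603887 to 24763152) fell by 0.15 on the log2 scale (SE 0.04, limma adjusted p = 0.0394) from Control to Trauma+TGF-β1, and Trauma against Control gave −0.12 (SE 0.04, adjusted p = 0.141), which passed as lower without the library Control 1 and with the GC correction. The call against Control in Trauma+TGF-β1 was lost with 9 of the 12 libraries left out in turn, and kept without Control 1, Trauma 4 or Trauma+TGF-β1 replicate 3. Cacna1e (ENSMUSG00000004110, chromosome 1 from 154390731 to 154884501), the R-type pore, had 9.88, 8.31, 8.44 and 8.7 FPKM in Control, 8.68, 8.59, 8.69 and 8.49 in Trauma, and 9.75, 9.96, 9.7 and 9.56 in Trauma+TGF-β1. Only Control 1 among the Control and Trauma libraries reached the level of the Trauma+TGF-β1 libraries. Cacna1e rose by 0.18 (SE 0.05, limma adjusted p = 0.0481) against Trauma, and gave 0.14 (adjusted p = 0.0827) against Control, which passed as higher without the library Control 1. The call against Trauma was kept with Control 1 or Control 2 left out and lost with each of the other 10 libraries. Its GC-corrected value against Trauma was 0.16 (limma adjusted p = 0.0919), and with the length correction it was 0.02 (adjusted p = 0.815). Cacna1a, the P/Q-type pore, did not pass (−0.07 against Trauma, SE 0.05, limma adjusted p = 0.432).

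Of the T-type Cav3 pores, which open near the resting potential, 2 of 3 passed as lower in Trauma+TGF-β1 than in Control. Cacna1i (ENSMUSG00000022416, chromosome 15 from 80287238 to 80398279) had 32, 32.2, 33 and 31.5 FPKM in Control, 31, 30.1, 29.1 and 29.6 in Trauma, and 28, 27.2, 27.1 and 26.9 in Trauma+TGF-β1. The 3 groups did not overlap, with Control highest and Trauma+TGF-β1 lowest. It fell by 0.13 (SE 0.03, limma adjusted p = 0.0202) against Trauma and by 0.24 (SE 0.03, adjusted p = 0.000593) against Control, and Trauma against Control gave −0.10 (SE 0.03, adjusted p = 0.0736). With the GC correction the value against Trauma turned to 0.05 (limma adjusted p = 0.655) and that against Control became −0.09 (adjusted p = 0.253). The call of Cacna1i against Trauma was lost with 4 of the 12 libraries left out in turn (Trauma 1 and 2 and Trauma+TGF-β1 replicates 2 and 4), and that against Control with 0. Cacna1g (ENSMUSG00000020866, chromosome 11 from 94408391 to 94474198) had 13.1, 13.3, 16.8 and 14.6 FPKM in Control, 12.3, 11.4, 13.4 and 13.6 in Trauma, and 11.3, 10.2, 13.1 and 12 in Trauma+TGF-β1. Its spread was wide, the highest Trauma+TGF-β1 library standing at the level of the lowest Control library. It was lower than in Control by −0.31 (SE 0.10, limma adjusted p = 0.0435), and −0.12 (adjusted p = 0.426) against Trauma did not pass. Its call was kept only without Control 1, Trauma 2 or Trauma+TGF-β1 replicate 3 among the 12 libraries left out, and with the GC correction the value was −0.19 (limma adjusted p = 0.118). Cacna1h gave −0.13 (SE 0.08, limma adjusted p = 0.282) against Control.

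The alpha2delta subunits anchor calcium channels at the surface, and Cacna2d1, the main binding site of gabapentin, led them with 77.5% ± 0.351 of their summed FPKM in Control. Cacna2d1 (ENSMUSG00000040118, chromosome 5 from 15934691 to 16374511) had 38.1, 33.8, 34 and 36.5 FPKM in Control, 32.4, 30.6, 31.4 and 30.2 in Trauma, and 34.9, 39, 34.3 and 35.8 in Trauma+TGF-β1. The Trauma libraries lay below all others, and Control and Trauma+TGF-β1 overlapped. It fell by 0.19 (SE 0.05, limma adjusted p = 0.0448) from Control to Trauma, a call that was kept only without Control 2 or Trauma+TGF-β1 replicate 2 among the 12 libraries left out (values −0.22 to −0.16), and rose by 0.21 (SE 0.05, adjusted p = 0.0231) from Trauma to Trauma+TGF-β1. These contrasts share the Trauma libraries, and Trauma+TGF-β1 against Control gave 0.02 (SE 0.05, limma adjusted p = 0.863). With the GC correction the fall was −0.18 (adjusted p = 0.0115, limma) and the rise was 0.08 (adjusted p = 0.252). The rise lost its call with 4 of the 12 libraries left out in turn (Trauma 2 and 4 and Trauma+TGF-β1 replicates 2 and 4). Cacna2d2 (ENSMUSG00000010066, chromosome 9 from 107399612 to 107529343) had 4.87, 4.91, 5.19 and 5.21 FPKM in Control, 4.28, 4.64, 4.7 and 4.79 in Trauma, and 3.56, 4.6, 4.11 and 4.18 in Trauma+TGF-β1. Every Control library lay above every scratched library, and the scratched groups overlapped. It fell by 0.29 (SE 0.07, limma adjusted p = 0.0193) against Control, and gave −0.16 (adjusted p = 0.164) against Trauma. Its GC-corrected value against Control was −0.22 (limma adjusted p = 0.0846). Cacna2d3 did not pass, with 0.08 against Trauma (limma adjusted p = 0.504).

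Of the intracellular beta subunits, which bind the pore and aid its export to the membrane, Cacnb3 had the highest level of all channel genes. Cacnb3 (ENSMUSG00000003352, chromosome 15 from 98630840 to 98644529) had 52.2, 59.9, 58.4 and 54.9 FPKM in Control, 49, 49.5, 46.9 and 49 in Trauma, and 44.9, 44, 47.8 and 44.9 in Trauma+TGF-β1. Every Control library lay above every scratched library, and the scratched groups overlapped. It fell by 0.21 (SE 0.05, limma adjusted p = 0.0173) from Control to Trauma and by 0.31 (SE 0.05, adjusted p = 0.00114) from Control to Trauma+TGF-β1, and the difference between the scratched groups was −0.10 (SE 0.05, adjusted p = 0.166). With the GC correction the fall from Control to Trauma was −0.23 (limma adjusted p = 0.00277), while that from Control to Trauma+TGF-β1 became −0.11 (adjusted p = 0.0694) and lost its call, and the value between the scratched groups turned to 0.12 (adjusted p = 0.07). Cacnb1 (ENSMUSG00000020882, chromosome 11 from 98001508 to 98023034) had 28.5, 28.5, 29.8 and 26.1 FPKM in Control, 28.9, 27, 28.4 and 26.4 in Trauma, and 25.6, 21.9, 25.5 and 22.5 in Trauma+TGF-β1. The Trauma+TGF-β1 libraries were the lowest and the other groups overlapped. It fell by 0.21 (SE 0.06, limma adjusted p = 0.0389) against Trauma and by 0.24 (SE 0.06, adjusted p = 0.019) against Control. These became −0.03 (limma adjusted p = 0.838) and −0.08 (adjusted p = 0.41) with the GC correction, and the call against Trauma was lost with 6 of the 12 libraries left out in turn, the 4 of Trauma and replicates 2 and 4 of Trauma+TGF-β1. The call of Cacnb1 against Control was lost with 4 of the 12. Cacnb2 and Cacnb4, which have the low GC contents of 39% and 40.5%, gave 0.31 (SE 0.15, limma adjusted p = 0.209) and 0.19 (SE 0.08, adjusted p = 0.143) against Trauma and did not pass, although their Trauma and Trauma+TGF-β1 libraries did not overlap. Cacnb4 shares 16% of its exon bases with A430018G15Rik on the opposite strand, and the sources used here do not say whether reads were counted by strand.

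In the gamma and TARP family only Cacng2 passed, and only against Control. Cacng4, the leading gene, had 44.2, 42.6, 40.8 and 37.2 FPKM in Control, 40.2, 38.5, 38 and 38.8 in Trauma, and 40.5, 42.4, 44.8 and 44.1 in Trauma+TGF-β1. Its Trauma+TGF-β1 libraries lay above all Trauma libraries, with 0.14 (SE 0.05, limma adjusted p = 0.09), which did not pass, and after the GC correction 0.24 (adjusted p = 0.0402), which did. Cacng2 (ENSMUSG00000019146, chromosome 15 from 77991748 to 78120028), the AMPA receptor partner stargazin, had 15.7, 15.5, 15.6 and 14.9 FPKM in Control, 14.4, 14.8, 14.4 and 14.6 in Trauma, and 14.2, 13.9, 14.4 and 13.4 in Trauma+TGF-β1. The Control libraries all lay above the scratched ones. Cacng2 was lower by −0.14 (SE 0.04, limma adjusted p = 0.0203) in Trauma+TGF-β1 than in Control, and Trauma against Control gave −0.08 (SE 0.04, adjusted p = 0.222). The call against Control was kept after the GC correction, at −0.14 (limma adjusted p = 0.02). It was lost with 4 of the 12 libraries left out in turn. Cacng3 and Cacng5 did not pass in any comparison, Cacng3 with 0.16 (limma adjusted p = 0.0963) and Cacng5 with 0.00 (adjusted p = 0.994) against Trauma.

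In the HCN family, Hcn2 and Hcn4 fell from Trauma to Trauma+TGF-β1, and Hcn2, Hcn3 and Hcn4 fell from Control to Trauma+TGF-β1. Hcn2 and Hcn4 give slow channels that respond strongly to cyclic AMP, and Hcn3 is little sensitive to it. The GC-rich promoter of Hcn2 is shown above. Hcn2 (ENSMUSG00000020331, chromosome 10 from 79716634 to 79736108) had 29.2, 31, 31.7 and 31.1 FPKM in Control, 30.2, 27.2, 26.5 and 27.4 in Trauma, and 23, 22.4, 23.2 and 21.5 in Trauma+TGF-β1. Its Trauma+TGF-β1 libraries were the lowest of all 12, and Control and Trauma overlapped through Trauma 1. Hcn2 fell by 0.30 (SE 0.05, limma adjusted p = 0.00508) against Trauma and by 0.45 (SE 0.05, adjusted p = 0.000136) against Control, and Trauma against Control gave −0.15 (SE 0.05, adjusted p = 0.0957). Hcn4 (ENSMUSG00000032338, chromosome 9 from 58823412 to 58863175) had 12, 13.8, 12.9 and 13.1 FPKM in Control, 13.8, 12.3, 13.1 and 12.3 in Trauma, and 11.2, 10.7, 10.1 and 9.14 in Trauma+TGF-β1. Control and Trauma overlapped, and the Trauma+TGF-β1 libraries lay below both. Hcn4 fell by 0.33 (SE 0.07, limma adjusted p = 0.0135 against Trauma and 0.00658 against Control) in each comparison. Hcn3 (ENSMUSG00000028051, chromosome 3 from 89146074 to 89160196) had 14.5, 13, 14.3 and 13.8 FPKM in Control, 13.1, 13, 13.6 and 11.8 in Trauma, and 12.2, 11.6, 11 and 12 in Trauma+TGF-β1. Control lay above Trauma+TGF-β1, and Trauma overlapped both. It fell by 0.25 (SE 0.05, limma adjusted p = 0.0101) against Control, and gave −0.14 (adjusted p = 0.12) against Trauma. Hcn3 shares 17.1% of its exon bases with Pklr on the opposite strand.

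Hcn2 has the highest GC content of the tested members, 65.4%, and Hcn3 and Hcn4 have 58% each. After the GC correction, the log2 fold changes against Trauma were 0.02 for Hcn2 (limma adjusted p = 0.91), 0.02 for Hcn3 (adjusted p = 0.907) and −0.17 for Hcn4 (adjusted p = 0.163). Against Control, the corrected values were −0.14 for Hcn2 (adjusted p = 0.205), −0.13 for Hcn3 (adjusted p = 0.283) and −0.22 for Hcn4 (limma adjusted p = 0.0497), so that Hcn2 and Hcn3 lost their calls.

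**Figure D3:**
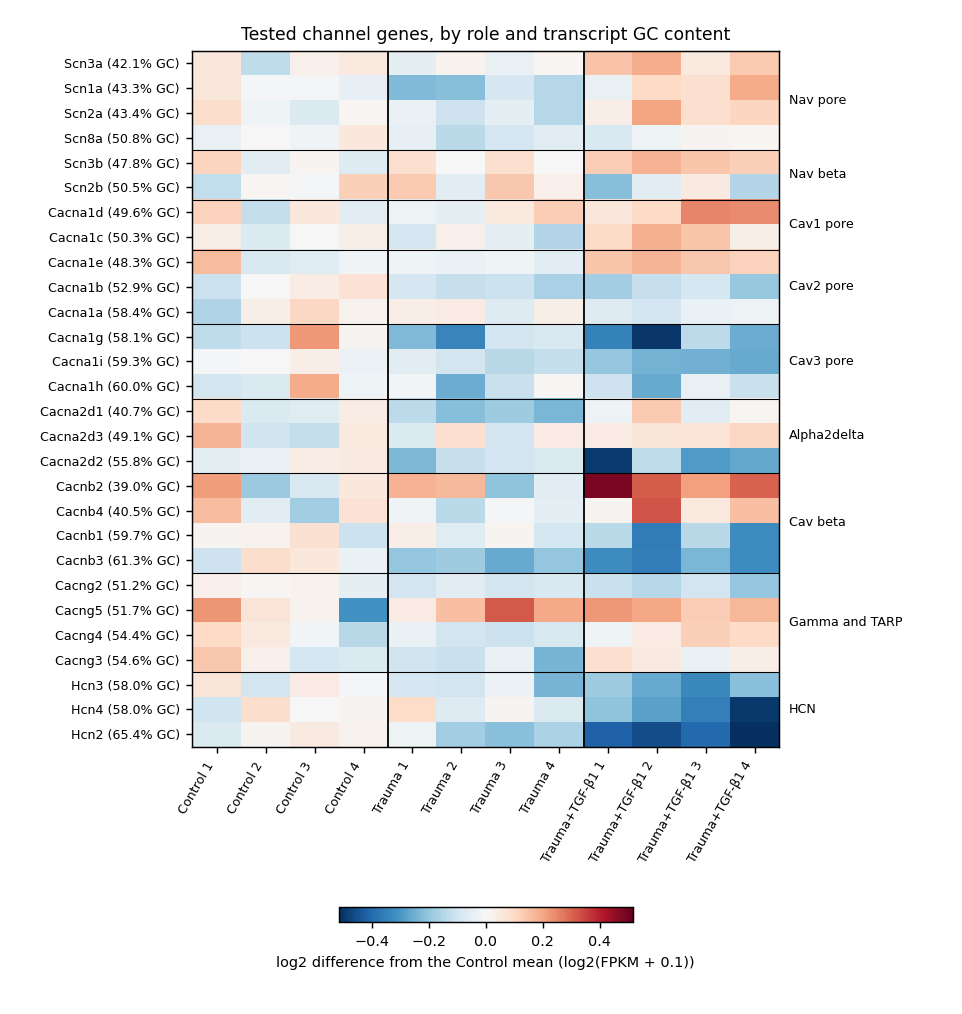
Log2 difference of 28 tested channel genes from their Control means, in each of the 12 libraries (columns), with genes grouped by role and sorted by transcript GC content within each role. In the 4 Trauma+TGF-β1 columns most genes low in GC are red (higher) and most high in GC are blue (lower), for instance among the calcium channel beta subunits.

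Direction with TGF-β1 went with the base composition of the transcript across the families. The 6 genes that rose against Trauma had transcripts of at most 50.3% GC (median 43.3%), and the 5 that fell had 58% to 65.4% (median 59.7%), ranges that do not overlap. Of the 11 tested members with under 50% GC, all 11 had log2 fold changes above 0 against Trauma, from 0.08 to 0.31. Of the 11 with at least 55% GC, all 11 had values below 0. The 8 members between these bounds had 5 values above 0 and 3 below. The bounds of 50% and 55% were not set in advance, so the clean split outside them partly reflects where they were placed. The same classes gave 3 of 11 and 1 of 11 values above 0 in Trauma against Control. Across the 30 members, the fold change against Trauma and the GC content had a Spearman rho of −0.84 (Pearson r −0.84), and over all 14699 genes with a known GC content rho was −0.47. These are descriptions over genes that share libraries and are not independent. Gene length went with direction too: the fold change against Trauma and the length had a rho of 0.58 over the members and 0.22 over all genes, and the median length was 15426 bp for the 6 that rose and 4529 bp for the 5 that fell. The part of length in the calls was not tested apart from GC content. For Trauma against Control the rho with GC content was −0.23 over the members and 0.09 over all genes, and for Trauma+TGF-β1 against Control it was −0.80 and −0.36.

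The relation was also described library by library. For each library, the members' differences from their mean over the 12 were set against GC content. The 12 differences of a gene balance out, so negative values in some libraries go with positive ones in others. The values per library therefore restate the group contrast and are not a separate check of it. The Spearman rho was −0.734, −0.896, −0.651 and −0.81 in the Trauma+TGF-β1 libraries and 0.564, 0.338, 0.474 and 0.572 in Trauma. In Control it was −0.115, 0.78, 0.821 and 0.46, where Control 1 stood apart from the other 3. Over all genes the sign was the same in each Trauma+TGF-β1 library, with rho between −0.433 and −0.148. When each library was corrected with a loess curve over GC content fitted on all genes, rho over the members fell to −0.27 against Trauma. None of the 11 genes then passed, and Cacng4, one of the genes not called before, was the only member that did (limma, 1 of 30, and 0 of 30 with the replicate number as a block). The corrected values kept their sign in 9 of the 11, and over the 30 members 8 changed sign. Against Control, 3 members passed after the correction, Cacng2 and Hcn4 among them. In Trauma against Control the corrected count was 4, with Scn1a and Cacna1b joining Cacnb3 and Cacna2d1, all lower. Whether the link with GC content arose in the cells or in the preparation of the libraries was not tested, and group and library preparation cannot be told apart here, since the labels name no batch.

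**Figure D4:**
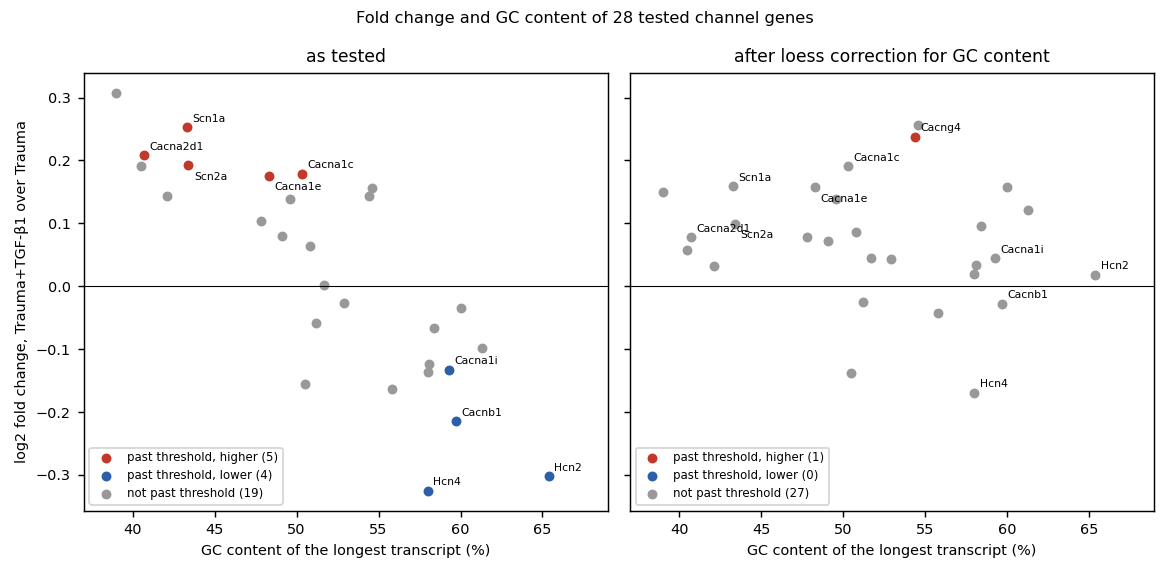
Log2 fold change of 28 tested channel genes between Trauma+TGF-β1 and Trauma against the GC content of the longest transcript, before (left) and after (right) a loess correction of each library for GC content. On the left the 5 red genes are all at 50.3% GC or less and the 4 blue genes at 58% or more, and on the right Cacng4 is the only coloured gene.

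Genes whose products bind these channels were followed as a list of 33 symbols, of which 27 were tested. The list was picked by hand with earlier results of these data known. Its shares of calls, here and below, are therefore descriptions and not evidence that partners changed more often than other genes. In Trauma against Control, 2 of the 27 were higher and 4 lower (22.2%, against 6% of all genes). Rem2 and Gem, small GTPases that bind calcium channel beta subunits and restrain calcium current, were the higher ones. Rem2 had 4.79, 2.8, 3.16 and 2.39 FPKM in Control, 6.16, 4.66, 5.18 and 6.79 in Trauma, and 3.67, 3.96, 4.72 and 4.08 in Trauma+TGF-β1. Only Trauma 2 lay below the highest Control library, and Rem2 rose by 0.81 on the log2 scale (SE 0.18, limma adjusted p = 0.0237). Gem rested on 5 to 21 reads per Control library and 25 to 60 per Trauma library, with 0.402, 0.587, 0.514 and 0.154 FPKM in Control and 0.722, 1.31, 1.61 and 1.18 in Trauma. It rose by 1.39 (SE 0.32, limma adjusted p = 0.0255) in Trauma and by 1.42 (SE 0.32, adjusted p = 0.0116) in Trauma+TGF-β1 against Control. Among the lower ones were the adhesion gene Cntn1 (−0.21, limma adjusted p = 0.0431), the sodium channel partner Fgf13 (−0.18, adjusted p = 0.0135) and the calmodulin gene Calm2 (−0.14, adjusted p = 0.0248). The call of Cntn1 was kept only without Control 3 or Trauma+TGF-β1 replicate 2 among the 12 libraries left out. In the same comparison the call of Rem2 was lost with 5 of the 12 left out in turn, that of Gem with 3, that of Calm2 with 5 and that of Fgf13 with 0.

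Between Trauma+TGF-β1 and Trauma, 3 partners passed (11.1%, a share like the 12.1% of all genes). Ank3, whose product ankyrin-G clusters sodium channels at the axon initial segment, had 20, 19.8, 19.7 and 18.8 FPKM in Trauma and 23.1, 22.6, 22.4 and 22.2 in Trauma+TGF-β1, which did not overlap, and rose by 0.20 (SE 0.05, limma adjusted p = 0.0174). With the length correction the value was 0.02 (limma adjusted p = 0.766), the GC correction kept the call, and it was lost without Trauma 4 or Trauma+TGF-β1 replicate 2. Cabp1, a calmodulin-like regulator of calcium channels, had 11.5, 12.1, 11 and 11.9 FPKM in Trauma and 9.7, 8.39, 10 and 8.38 in Trauma+TGF-β1, and fell by 0.35 (SE 0.08, limma adjusted p = 0.0186). Cbarp, which binds calcium channel beta subunits, fell by 0.16 (SE 0.04, limma adjusted p = 0.0272), a value that turned to 0.11 with the GC correction. With libraries left out in turn, the call of Cabp1 against Trauma was lost with 4 of the 12 and that of Cbarp with 5. Against Control, Ank3, Nedd4l, Gem and Cachd1 were higher in Trauma+TGF-β1 and Fam155a, Stac, Cabp1, Calm2 and Calm3 were lower (33.3% of the 27, against 16.6% of all genes). The call of Ank3 against Control was kept only without Control 1 among the 12 libraries left out, and that of Calm3 was lost with the GC correction. That of Nedd4l was lost with 6 of the 12 libraries left out in turn, and with the length or the GC correction. The largest falls of these were Stac, an L-type channel partner (−0.84, SE 0.17, limma adjusted p = 0.00773, on 25 to 45 reads per Trauma+TGF-β1 library), and Cabp1 (−0.58, SE 0.08, adjusted p = 0.000837). The median over the 27 partners was −0.09 in Trauma against Control, 0.06 in Trauma+TGF-β1 against Trauma and 0.02 in Trauma+TGF-β1 against Control, beside −0.01, 0.00 and −0.01 over all genes.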

How the data were processed

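RNA of 12 libraries was sequenced as paired ends on an Illumina NovaSeq. The authors aligned the reads with HISAT2 2.0.5 (submitters' processing notes, build mm10), counted them per gene with featureCounts and deposited FPKM values. The deposited table also holds the length of each gene (other), used by the authors for the FPKM. Their methods speak of 6 samples, while the table holds 12. Of the gene identifiers, 54899 had the same start and end in GENCODE M21 (GRCm38).

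FPKM times length was a whole multiple of 1 read (tolerance 0.05) for 100% of the values above 0, which gave the reads per gene. Intervals from reads would cover counting error only and are not given. Median-of-ratios factors over 17640 genes differed from 1 by at most 2.4e-09, so the deposited FPKM were already on that scale. The 15016 genes averaging 0.5 FPKM or more were taken to log2 after adding 0.1 and fitted with limma 3.58.1 in R 4.3.3 (12 libraries, 3 groups, eBayes with a trend), adjusted by Benjamini-Hochberg over all genes. Fold changes are on the log2(FPKM + 0.1) scale. The count test named in the methods was not run, and limma voom on the recovered reads was run as an alternative. The procedure was tested on simulated data, whose changes were larger than those of the channel genes and held no trend with GC content or length. That test therefore does not bear on how such trends or smaller changes affect the calls. GC content was that of the longest GENCODE transcript, corrected with loess (span 0.3). Promoters are from RefSeq (GRCm38.p6) and exon overlaps from GENCODE M21. Python 3.11.15, pandas 2.3.3, numpy 2.4.6 and matplotlib 3.10.9 were used.

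Members are given by role. Values per library are given for members past the threshold in at least 1 comparison, the leading member of each role, and Cacna1c and Cacna1d, and partners past the threshold are named. Some genes that enter the counts are not reported here by name and are not drawn. Other members are given by their values where a sentence accounts for a family. Members, lists and tests were chosen with earlier results of these data known. The alternatives tried were other pseudocounts, filters and scalings, a fit of the 2 groups, other eBayes settings, the replicate number as a block, corrections for gene length and GC content, voom on the recovered reads, protein-coding genes alone, and each library left out. Rescaling to total gene reads and factors from the tested genes alone were added after the data were seen. Imaging, RT-qPCR and protein measurements were not analysed here.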

Additional observations from a re-analysis of the deposited data

Results flagged for a closer look

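In 1 of the 90 groups of 4 libraries examined (30 tested channel genes in 3 groups), a library lay far from the others. Cacna1a, the P/Q-type calcium channel pore gene, stood at 22.8 FPKM in the library Trauma 3 and at 24.4 to 24.6 FPKM in the other Trauma libraries, so that the gap made up 0.881 of the whole range, above Dixon's 95% critical value for 4 samples. Chance flags about 1 in 20 such groups. Cacna1a did not pass the threshold in any comparison.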

How the results depend on the processing

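The 25 calls of channel genes were recomputed under 30 alternatives each, which gave 557 values that kept their direction and stayed past the threshold, 189 that kept their direction and missed it, and 4 that changed sign. Hcn4 against Control passed in all 30. In Trauma against Control, 1 channel gene passed with no filter (575 of all genes), quantile normalization, eBayes without a trend, the replicate number as a block, rescaling to total gene reads or factors from the tested genes (the last pair chosen after seeing the data), 0 with the fit of the 2 groups (518 of all genes), and 4 with the GC correction with or without the block (1366 of all genes with it). In Trauma+TGF-β1 against Trauma, 7 passed with no filter (987 of all genes), 4 with the length correction, 5 with that and the block (876 of all genes), 1 with the GC correction (817 of all genes) and 0 with that and the block (740 of all genes). In Trauma+TGF-β1 against Control, 6 passed with the fit of the 2 groups (1601 of all genes), 3 with the GC correction and 4 with that and the block. No filter adds genes to the adjustment and the fit of 2 groups uses fewer libraries, and otherwise the cause was not tested.

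With each library left out, the channel genes called ranged from 0 to 2, from 4 to 12 and from 6 to 13 in the 3 comparisons, and all genes called from 489 to 875, from 651 to 2539 and from 1488 to 3389, with the highest counts of all genes without Control 1. Among the called values and those of Cacna1c and Cacna1d, signs changed for Calm3 against Control with quantile normalization (0.063), Cacna1c against Control with the length correction (−0.005 with or without the block), Cacna1d in Trauma against Control with the GC correction (−0.003 with or without the block) and with a library left out (−0.015 to 0.066), and, against Trauma with the GC correction with or without the block, Cacna1i (0.045), Hcn2 (0.018) and Cbarp (0.106). Over all 30 tested members, called or not, the GC correction changed the sign of 2, 8 and 5 values in the 3 comparisons. Of all calls, 55%, 36.3% and 37.1% were higher in the 3 comparisons, against 62.4%, 54.8% and 55.3% with quantile normalization, 74.6%, 37.9% and 55% on total gene reads, and 39%, 32.2% and 33.3% with the GC correction. Same-numbered libraries deviated from their group means with correlations of −0.009 to 0.076 over all tested genes. Low values over all genes cannot exclude that same-numbered libraries shared a preparation, and the labels do not say. With the replicate number as a block, 1, 8 and 11 channel genes passed in the 3 comparisons. Members below 0.5 FPKM held few reads, and small changes in them were not detectable at this depth.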
